A study of Rattus norvegicus with 25 samples.

Results

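Aif1, C1qa and C1qb, genes used as readouts of microglia and of their complement, were followed through postnatal life in the rat prefrontal cortex. The 3 genes were taken by Ensembl ID, ENSRNOG00000000853 for Aif1, ENSRNOG00000012807 for C1qa and ENSRNOG00000012804 for C1qb, out of 29516 gene IDs in the deposited table. The symbols come from that selection rule. The table holds IDs only and the reference table used here lists no Ensembl IDs, so the pairing of ID and symbol was not checked against an annotation. RNA of wild-type (WT) Wistar rats was sequenced at ages from postnatal day 8 (P8) over P14, P21 and P35 to day 70 (P70), with 5 libraries at each age and 25 in all. No group carried a transgene or a treatment in the labels, and they name no sex. They also do not tie each library to an animal of its own, so the p-values speak of variation between libraries, which may be technical. The 5 libraries of each age carry only 3 different leading numbers in their titles, whose meaning the labels do not give. Both limma and the permutation tests treat all libraries as independent, whether or not they share a number. The question of the design was how expression differs between these ages.

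Microglia are the resident macrophages of the brain. They enter it before birth, multiply and spread through the cortex in early postnatal life, and take part in clearing dying cells and removing synapses. Aif1 encodes Iba1, a calcium-binding protein of the actin cytoskeleton whose antibody is the usual stain for microglia. C1q is the recognition molecule of the classical complement pathway, built from A, B and C chains encoded by C1qa, C1qb and C1qc, and it starts the cascade that deposits C3 on its target. In brain tissue microglia are the main source of C1q, and C1q is known for marking synapses that microglia then remove.

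The C1q genes form a cluster. In the order of RefSeq genes, C1qa and C1qb lie on either side of C1qc, while Aif1 lies elsewhere, between Ncr3 and Prrc2a. The stretch from 250 bases before to 50 bases after the start of the gene is shown for C1qa and C1qb, as none was at hand for Aif1. Both are RefSeq sequences of build GRCr8, a later build than the rn4 assembly of the deposited values, and both lie on the minus strand. They cover chr5:154419884-154420183 for C1qa and chr5:154407778-154408077 for C1qb and are written 5′ to 3′ along the gene. The promoter table matched 2 of the 3 genes, and Aif1 was not among them. Capitals mark matches to the letters GGAAGT, the core bound by ETS factors such as PU.1, and TGCTGA, the core of the site of MAF factors, on either strand.

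C1qa promoter: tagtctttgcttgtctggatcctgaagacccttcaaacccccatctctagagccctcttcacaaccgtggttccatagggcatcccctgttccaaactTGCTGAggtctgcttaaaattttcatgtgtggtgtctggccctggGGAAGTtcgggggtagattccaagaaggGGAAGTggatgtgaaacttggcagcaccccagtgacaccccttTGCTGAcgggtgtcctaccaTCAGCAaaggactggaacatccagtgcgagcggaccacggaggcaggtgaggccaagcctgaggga

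C1qb promoter: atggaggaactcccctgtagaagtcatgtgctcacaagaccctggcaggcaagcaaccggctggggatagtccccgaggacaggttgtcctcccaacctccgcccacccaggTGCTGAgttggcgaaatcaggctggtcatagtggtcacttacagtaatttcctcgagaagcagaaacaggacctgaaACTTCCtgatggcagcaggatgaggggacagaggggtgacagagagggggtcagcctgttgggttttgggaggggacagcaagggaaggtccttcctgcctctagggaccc

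C1qa held 5 such matches and C1qb 2, with no overlap between them. Positions are counted from the start of the gene, with +1 as its first base. In C1qa, GGAAGT began at -107 and at -79, and TGCTGA at -152, at -36 and, on the other strand, at -16. In C1qb, TGCTGA began at -138 and GGAAGT, on the other strand, at -61. Among 33469 stretches of the same length, 22.6% held GGAAGT, 18.4% held TGCTGA and 3.99% held both. The interferon regulatory factor element (in 3.92% of stretches) and the letters TATAAA of the TATA box (14.2%) were in neither. The motifs were chosen after the sequences were seen, and a match is a description of letters, not evidence of binding.

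C1qa and C1qb rose after P8 and Aif1 did not pass the test at any pair of ages. C1qa went from 5.76 ± 1.16 FPKM at P8 to 14.6 ± 3.77 at P70, and C1qb from 3.09 ± 0.591 to 6.4 ± 1.84 FPKM (SD, n = 5). Aif1 was at 10.7 ± 1.97 FPKM at P8 and 9.58 ± 1.7 at P70 (SD, n = 5). FPKM scales reads by transcript length and by library size. Comparing levels of different genes rests on the transcript lengths used, which were not checked here. In a piece of tissue, a change in the number of cells of a type cannot be told apart from a change in RNA per cell. An F-test over the 5 ages (limma, Benjamini-Hochberg adjusted over 14128 gene IDs) called C1qa (adjusted p = 0.000155) and C1qb (adjusted p = 7.79e-05). It did not call Aif1 (adjusted p = 0.664). That is 2 of 3 genes, where 55.5% of all gene IDs tested were called, so being called in this test is not particular to C1q.

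**Figure D1:**
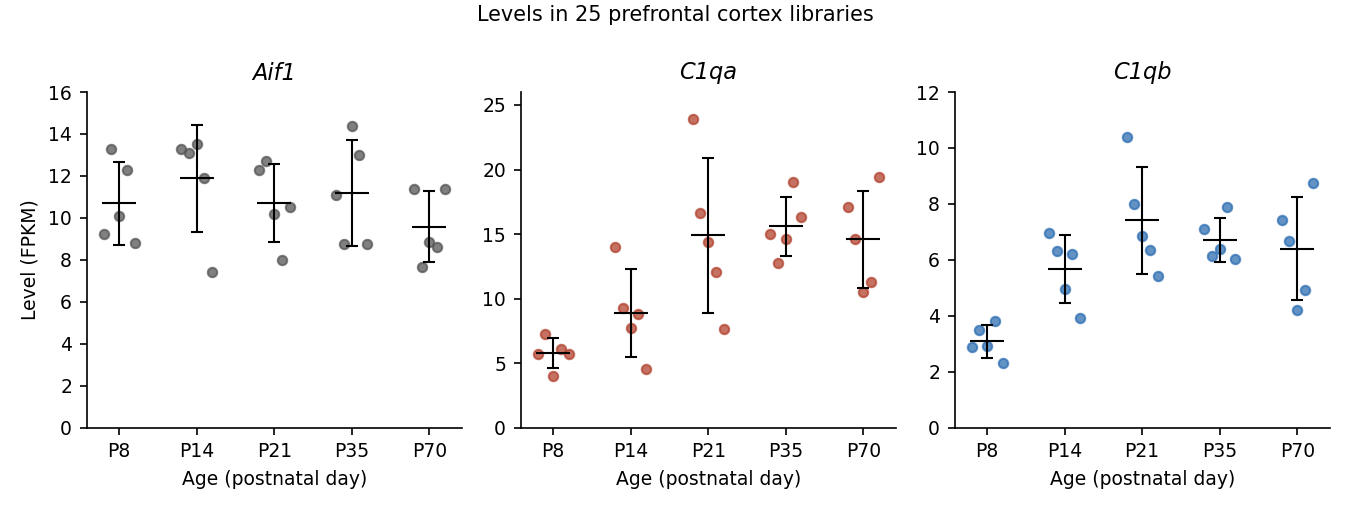
Level in FPKM (vertical axis, separate scale for each gene) of Aif1, C1qa and C1qb at 5 ages (horizontal axis). Each point is 1 library, and the horizontal mark and bar are the mean and SD of 5 libraries. All P35 libraries for C1qa lie at or above 12.8 FPKM, above the highest P8 library at 7.27, while Aif1 spans 7.43 to 14.4 FPKM over all ages.

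C1qa encodes the A chain of C1q. At P8 its 5 libraries were at 5.7, 7.27, 4.03, 6.08 and 5.72 FPKM, and at P14 at 14, 9.24, 7.73, 8.78 and 4.58 FPKM. At P21 they were at 23.9, 16.6, 14.4, 12.1 and 7.65 FPKM. The P8 values spread 1.8-fold and those of P14 and P21 about 3-fold (3.06 and 3.13). The lowest P14 library lay within the range of P8. At P35 the values were 15, 12.8, 14.6, 19 and 16.3 FPKM, and at P70 17.1, 14.6, 10.5, 11.3 and 19.4 FPKM. Every P21, P35 and P70 library was above every P8 library.

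C1qb encodes the B chain. Its P8 libraries were at 2.9, 3.51, 2.93, 3.82 and 2.3 FPKM, and its P14 libraries at 6.96, 6.32, 4.96, 6.21 and 3.91 FPKM. The lowest P14 library, at 3.91, lay just above the highest P8 library, at 3.82, so these ages did not overlap. At P21 the values were 10.4, 8.01, 6.87, 6.35 and 5.43 FPKM, at P35 7.11, 6.13, 6.38, 7.88 and 6.05 FPKM, and at P70 7.42, 6.69, 4.22, 4.91 and 8.75 FPKM. The 3 later ages overlapped each other and P14, and all lay above P8.

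Aif1 showed no such separation. Its libraries were at 9.22, 13.3, 10.1, 12.3 and 8.81 FPKM at P8, at 13.3, 13.1, 13.5, 11.9 and 7.43 FPKM at P14, and at 12.3, 12.7, 10.2, 7.99 and 10.5 FPKM at P21. They were at 11.1, 8.76, 14.4, 13 and 8.74 FPKM at P35 and at 11.4, 7.68, 8.85, 8.6 and 11.4 FPKM at P70. Every pair of ages overlapped.

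From P8 to P14, C1qb rose by 0.77 ± 0.18 log2 units (SE; 1.71-fold, limma adjusted p = 0.00232). C1qa was higher by 0.52 ± 0.25 log2 units, which did not pass (SE; limma adjusted p = 0.127), and Aif1 differed by 0.12 ± 0.17 (SE; adjusted p = 0.631). So 1 of 3 genes rose, beside 13.6% of all gene IDs. C1qb was the 1 gene whose P14 libraries all lay above its P8 libraries, as at 9.51% of gene IDs. The call for C1qb was lost when FPKM totals were made equal between libraries (log2 change 1.01, adjusted p = 0.0604; range over 35 alternatives 5.2e-05 to 0.0604). C1qa was called without P14 replicate 5, its lowest P14 library (log2 change 0.72, adjusted p = 0.0279), and after quantile normalization (0.57, adjusted p = 0.047), in a range of 0.0186 to 0.329. The unequal calls do not show that C1qa and C1qb differed at this step. Their ratio changed by -0.248 ± 0.18 log2 units (SE), with an exact two-sided permutation p of 0.222 and an adjusted p of 0.333.

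From P14 to P21 none of the 3 genes passed in limma, where 17.4% of gene IDs did in either direction. The unadjusted limma p of C1qa was 0.0101, and no share of all gene IDs before adjustment is given to set beside it. C1qa was higher by 0.71 ± 0.25 log2 units (SE; limma adjusted p = 0.0551) and C1qb by 0.35 ± 0.18 (SE; adjusted p = 0.195). Aif1 differed by -0.13 ± 0.17 log2 units (SE; limma adjusted p = 0.67). C1qa passed without P14 replicate 1 (0.89, adjusted p = 0.0177), its highest P14 library, and without P21 replicate 5 (0.92, adjusted p = 0.0107), its lowest P21 library. It also passed after quantile normalization (0.8, adjusted p = 0.0122) and median-of-ratios scaling (0.81, adjusted p = 0.0137), in a range of 0.0107 to 0.472 over alternatives. C1qb passed after the same scalings, with adjusted p = 0.0399 and 0.0316, in a range of 0.0316 to 0.918.

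By P21 both C1q genes were above P8. C1qa was higher by 1.23 ± 0.25 log2 units (SE; 2.35-fold, limma adjusted p = 0.000284) and C1qb by 1.12 ± 0.18 (SE; 2.18-fold, adjusted p = 1.72e-05). These 2 of 3 genes stood beside 18.3% of gene IDs that rose, and their libraries did not overlap P8, as at 14.9% of gene IDs. Of all gene IDs, 2.78% rose more than C1qa and 3.54% more than C1qb. Aif1 was level with P8, at -0.00 ± 0.17 log2 units (SE; limma adjusted p = 0.995), with a 95% interval of -0.36 to 0.36.

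From P21 on, no member of the group passed at any step in limma. Between P21 and P35, C1qa differed by 0.14 ± 0.25, C1qb by -0.11 ± 0.18 and Aif1 by 0.05 ± 0.17 log2 units (SE; limma adjusted p = 0.9, 0.888 and 0.955), where 1.62% of gene IDs were called. Between P35 and P70 the differences were -0.12 ± 0.25, -0.10 ± 0.18 and -0.20 ± 0.17 log2 units (SE; limma adjusted p = 1 for each), where 0.12% were called. Between P21 and P70 they were 0.02, -0.21 and -0.15 log2 units, beside 6.12% called. In these comparisons the lowest unadjusted limma p of the 3 genes was 0.249, for Aif1 from P35 to P70. The 95% intervals from P35 to P70 ran from -0.64 to 0.41 for C1qa, from -0.48 to 0.27 for C1qb and from -0.56 to 0.15 for Aif1. They are not adjusted, and the values do not exclude changes within those bounds. They are not the smallest changes that the adjusted test could call.

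The elevation of C1q over P8 was still present in the last ages. At P35 C1qa was 1.37 ± 0.25 log2 units above P8 (SE; 2.58-fold, limma adjusted p = 7.74e-05) and C1qb 1.01 ± 0.18 (SE; 2.02-fold, adjusted p = 5.11e-05), beside 19.2% of gene IDs that rose. At P70 C1qa was 1.25 ± 0.25 above P8 (SE; 2.38-fold, limma adjusted p = 0.000199) and C1qb 0.91 ± 0.18 (SE; 1.88-fold, adjusted p = 0.000161), beside 19.9%. Neither gene overlapped P8 at these ages, which held for 15.2% and 15.5% of gene IDs. Aif1 at P70 differed from P8 by -0.16 ± 0.17 log2 units (SE; limma adjusted p = 0.468), with a 95% interval of -0.51 to 0.20. The median of all gene IDs over this span was also -0.16 as deposited, and -0.01 after median-of-ratios scaling, under which Aif1 came to 0.00. The rises of C1qa and C1qb from P8 to P21, P35 and P70 passed under all 35 alternatives run for each.

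**Figure D2:**
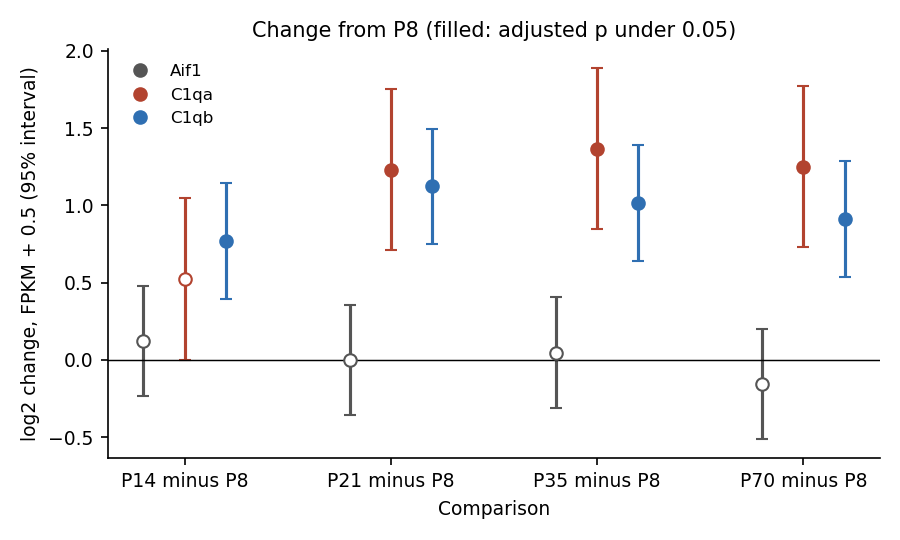
Change from P8 on the log2(FPKM + 0.5) scale (vertical axis) for Aif1, C1qa and C1qb at P14, P21, P35 and P70 (horizontal axis), with 95% intervals from limma over 25 libraries. Filled points passed at an adjusted p under 0.05: C1qb at every later age and C1qa from P21 on. All Aif1 intervals include 0. The intervals are not adjusted, so that of C1qa at P14, from 0.0012 to 1.047, excludes 0 although its point is open.

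C1qa was called above P14 at P35 and P70, though not at P21, and C1qb at none of these ages. Taking the change from P8 to P70 as the whole, and with no test, the mean of C1qb had made 84.4% of it at P14 and that of C1qa 41.9%. At P21 the shares were 123% and 98.5%. The ratio of C1qa to C1qb differed between P14 and P21 by 0.36 ± 0.17 log2 units, which did not pass (SE; exact two-sided permutation p = 0.103, adjusted p = 0.185), so the timing of the 2 genes is not shown to differ. C1qa was above P14 at P35 by 0.84 ± 0.25 log2 units (SE; limma adjusted p = 0.0138, beside 9.34% of gene IDs that rose) and at P70 by 0.73 ± 0.25 (SE; adjusted p = 0.0283, beside 11.2%). C1qb was above P14 by 0.24 ± 0.18 at P35 and 0.14 ± 0.18 at P70, which did not pass (SE; limma adjusted p = 0.348 and 0.587). The P35 call for C1qa was lost with equal FPKM totals (adjusted p = 0.345) and without the 3 libraries least like their age (0.0528). The P70 call was lost in those settings (0.382 and 0.104), from these ages alone (0.0622), and without P14 replicate 3 (0.0528), P14 replicate 5 (0.0983) or P70 replicate 1 (0.0638), 2 (0.0508) or 5 (0.0762).

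In order of mean log2 level, the scale of the test, C1qa ran P8, P14, P21, P70, P35. No pair of neighbours in that order passed the adjusted limma test. Before adjustment, the limma p of C1qa was 0.0495 between P8 and P14 and 0.0101 between P14 and P21. It was 0.94 between P21 and P70 and 0.649 between P70 and P35. C1qb ran P8, P14, P70, P35, P21, where only P8 and P14 passed. Aif1 ran P70, P21, P8, P35, P14, with no neighbours that passed. Aif1 at P14 against P70, its highest and lowest ages, gave -0.28 ± 0.17 log2 units (SE; limma adjusted p = 0.224). Without P14 replicate 5 that difference was -0.43 and passed (adjusted p = 0.0393, range over alternatives 0.0393 to 0.565).

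Set against the other transcripts of the tissue, C1qa moved up the order. Its mean level was above 45.2% of the gene IDs tested at P8 and above 59.1%, 75.7%, 76.5% and 75.5% at P14, P21, P35 and P70. C1qb moved from above 28.1% at P8 to above 55.5% at P21 and 51.2% at P70. Aif1 stayed above 63.8% to 67.9% of gene IDs at all ages. At P8 Aif1 thus had the highest mean FPKM of the 3, and at P21, P35 and P70 the mean FPKM of C1qa was above that of Aif1.

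Plain FPKM ratios within a library do not move with the scaling of that library. The medians and ranges below are of such ratios. The tested log2 changes had 0.5 FPKM added to both genes, so they can still move somewhat with scaling. They are also not the log2 of the change in medians. The C1qa to Aif1 ratio had a median of 0.545 at P8 (0.401 to 0.649), 0.703 at P14 (0.571 to 1.06) and 1.41 at P21 (0.728 to 1.95). It was 1.46 at P35 (1.02 to 1.87) and 1.51 at P70 (1.19 to 1.89). Every library from P35 and P70 had a higher FPKM for C1qa than for Aif1, as did 4 of 5 at P21, 1 of 5 at P14 and 0 of 5 at P8. From P8 to P70 the ratio rose by 1.41 ± 0.16 log2 units (SE; exact two-sided permutation test, p = 0.00794, the smallest that 5 against 5 libraries can give, adjusted p = 0.0397 over 15 comparisons).

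The C1qb to Aif1 ratio rose by P14. Its median was 0.291 at P8 (0.261 to 0.314), 0.52 at P14 (0.366 to 0.526), 0.675 at P21, 0.641 at P35 and 0.654 at P70. From P8 to P14 it rose by 0.65 ± 0.11 log2 units, with no overlap (SE; exact permutation test, p = 0.00794, adjusted p = 0.0397). From P8 to P70 it rose by 1.07 ± 0.15 (SE; exact permutation p = 0.00794, adjusted p = 0.0397). The step from P14 to P21 gave 0.83 ± 0.27 log2 units for C1qa to Aif1 and 0.48 ± 0.15 for C1qb to Aif1 and did not pass (SE; exact permutation, adjusted p = 0.0893 and 0.0952). The 3 rises that passed sit together at the smallest p this design allows, and the adjustment ties them to each other. Leaving out any 1 of the 15 libraries of P8, P14 or P70 took their adjusted p to 0.0595 or 0.0794, with changes of 1.31 to 1.49, 0.61 to 0.74 and 0.97 to 1.17 log2 units.

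**Figure D3:**
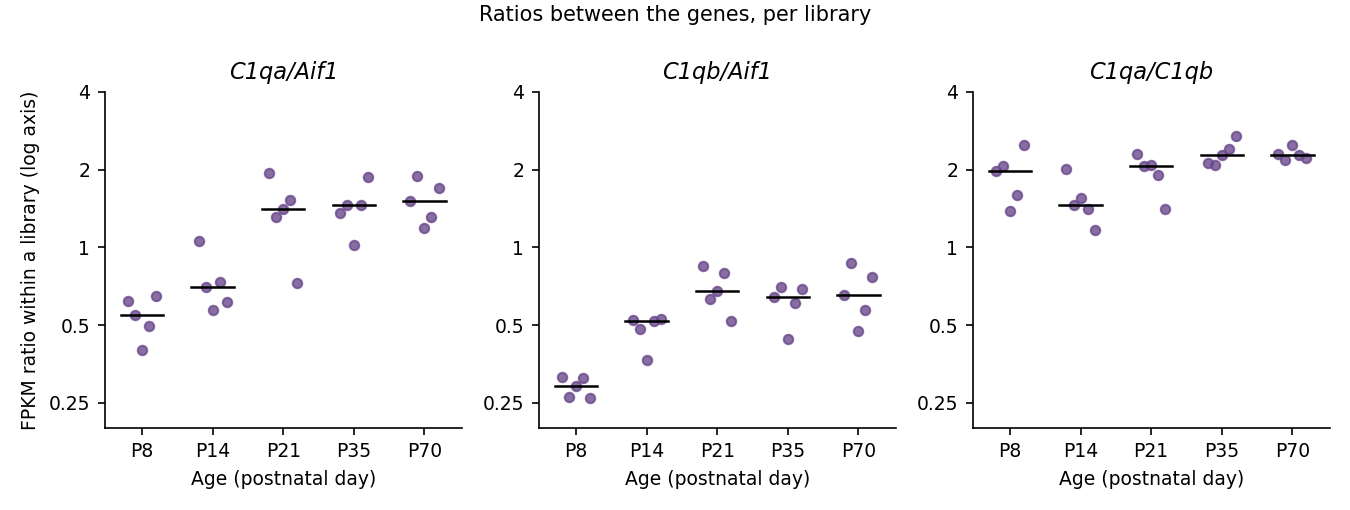
FPKM ratio of 2 genes within a library (vertical axis, log scale) at 5 ages (horizontal axis). Each point is 1 library and the line is the median of 5. C1qa to Aif1 goes from a median of 0.545 at P8 to 1.51 at P70, C1qb to Aif1 from 0.291 to 0.654, and C1qa to C1qb lies between 1.17 and 2.7 throughout.

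C1qa and C1qb kept a closer ratio to each other. C1qa was above C1qb in FPKM in all 25 libraries, with a median ratio of 1.97 at P8, 1.46 at P14, 2.07 at P21 and 2.29 at both P35 and P70. From P8 to P70 the ratio differed by 0.34 ± 0.13 log2 units, which did not pass after adjustment (SE; exact two-sided permutation p = 0.0397, adjusted p = 0.0992). With a pseudocount of 1 it did (0.36, exact permutation adjusted p = 0.0476, range over 28 alternatives 0.0476 to 0.185). At P70 the ratio was 2.18 to 2.5 in the 5 libraries, although C1qa itself varied 1.84-fold and C1qb 2.07-fold between them.

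Libraries of the same age that were high for one C1q gene tended to be high for the other. In 20 of 25 libraries both genes lay on the same side of their age mean, with all 5 at P14 and P70, 4 at P21 and 3 each at P8 and P35. The counts were 22 of 25 for C1qb and Aif1 and 17 of 25 for C1qa and Aif1, so this was not particular to the C1q pair. These counts are descriptions, since libraries of 1 age share the mean they are compared with. The genes of 1 library also share its scaling, and pairs of other genes were not counted.

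**Figure D4:**
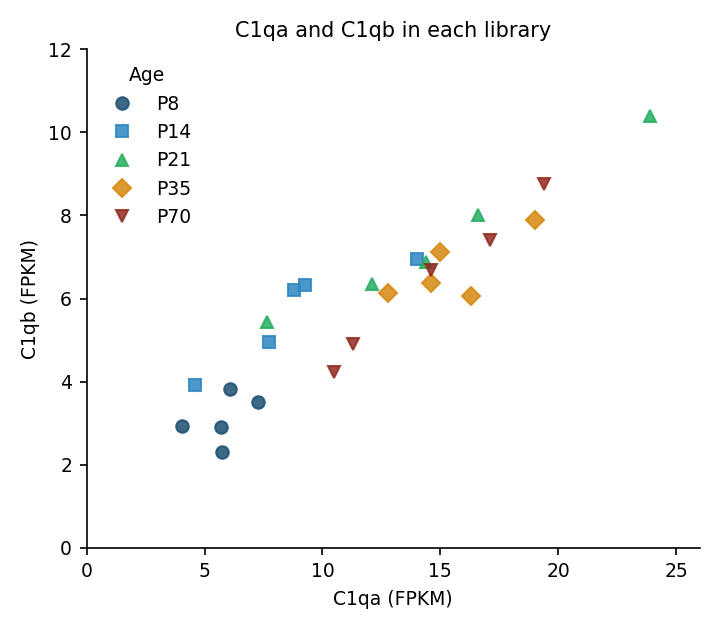
C1qb (vertical axis, FPKM) against C1qa (horizontal axis, FPKM) in the 25 libraries, 1 point each, with the age as color and shape. P8 libraries lie at the lower left, at up to 7.27 FPKM of C1qa and 3.82 of C1qb, and the P21 library at 23.9 and 10.4 FPKM lies farthest to the upper right.

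The depth behind these values could be read from the table. Where reads are counted whole, each FPKM of a gene is a whole multiple of what 1 read is worth, and this held within 0.05 reads in all libraries for C1qa and C1qb but not for Aif1. C1qa rested on 74 to 676 reads per library and C1qb on 54 to 302. At P8 the medians were 150 and 79 reads, and at P21 398 and 214. The variance between libraries was 5.64 times that of counting alone for C1qa at P8, 51.5 times at P21 and 18.4 times at P70. For C1qb it was 2.82, 10.2 and 10.2 times. Counting error covers reads only, and most of the spread at P21 was therefore beyond it.

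The ratio of C1qa to C1qb was closer to counting error. Its SD on the log2 scale was 0.334 at P8, 0.283 at P14 and 0.271 at P21, then 0.151 at P35 and 0.076 at P70, where counting alone gives 0.207, 0.167, 0.163, 0.131 and 0.157. At P70 the libraries thus spread less in this ratio than the counts of their reads would give on average.

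The spread of C1qa was large also beside other genes at every age but P35. Its SD between libraries on the log2 scale was 0.282 at P8, 0.545 at P14, 0.582 at P21 and 0.366 at P70, more than in 83%, 87.4%, 89.9% and 83% of gene IDs. IDs with a mean level within 0.5 log2 units of it had median SDs of 0.143, 0.224, 0.154 and 0.196 at those ages. At P35 it was 0.204, beside 0.22 for such IDs. C1qb had its largest SD at P70, 0.398, more than in 86.1% of gene IDs. At P8, P14, P21 and P35 its SDs were 0.242, 0.306, 0.335 and 0.151, more than in 78%, 66%, 78.6% and 22.4%. Aif1 had SDs of 0.249, 0.348, 0.253, 0.313 and 0.242 from P8 to P70, more than in 79%, 73.3%, 66.9%, 78.5% and 57.8%. A spread above that of most gene IDs was thus not particular to C1qa. The 2 libraries lowest in C1qa at P14 and P21, P14 replicate 5 and P21 replicate 5, had relative depths of 0.706 and 0.386, with the median library at 1. They were also among the 3 libraries with the lowest mean correlation to their age, at 0.919 and 0.931. Other shallow libraries held other places within their age in C1qa. P21 replicate 3 (depth 0.651) and P70 replicate 2 (0.447) were at the C1qa medians of their ages, 14.4 and 14.6 FPKM. P70 replicate 5 (0.733) was the highest of P70 in C1qa, at 19.4 FPKM. In Aif1, P70 replicate 2 was the lowest of P70, at 7.68 FPKM. The part of depth in the low values of P14 replicate 5 and P21 replicate 5 was not tested. In these 2 libraries counting error was 11.1% and 11.6% of the C1qa level and 11.9% and 13.6% of the C1qb level.

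Across the whole table, libraries had 12693 to 13468 gene IDs at 1 FPKM or more, and FPKM totals of 472548 to 1649378, a 3.49-fold range. All 3 genes had more than 1 FPKM in every library, so none depended on the filter on low values. Other genes of the complement pathway, other microglial genes and markers of further cell types were not analysed here, because their IDs could not be paired with names. That also leaves the labelled tissue unchecked against markers.

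The gene IDs most like the 3 genes together were sought over 13263 IDs with a mean of at least 1 FPKM. Likeness was Pearson's r over the 25 libraries with the mean of the 3 standardized log2 levels, which share age and library scaling, and it carries no test. The 3 genes were not equally alike among themselves. Over the 25 libraries r was 0.899 between C1qa and C1qb, 0.232 between Aif1 and C1qa and 0.325 between Aif1 and C1qb. By r with C1qa, C1qb ranked only 23 when set among the IDs searched. Likeness to the mean is thus not likeness to each gene. ENSRNOG00000000569 came first (r = 0.906). Its FPKM was 4.05 ± 0.458 (P8), 5.57 ± 1.08 (P14), 6.27 ± 0.462 (P21), 6.97 ± 0.791 (P35) and 6.17 ± 1.24 (P70; SD, n = 5). ENSRNOG00000017123 came next (r = 0.889), with 48.4 ± 4.86 (P8), 63.1 ± 17.1 (P14), 72.8 ± 12.4 (P21), 68.8 ± 9.64 (P35) and 69.4 ± 16 FPKM (P70; SD, n = 5). Both were lowest at P8, as C1qa and C1qb were. They were picked for likeness to these same levels, so the shared low is not a separate result.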

How the data were processed

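The authors deposited 1 table of FPKM values with a row per Ensembl gene ID and a column per library. Per the labels' protocols, ribosomal RNA was depleted, 50 bp single-end reads were made and GSNAP aligned them to rn4; the submitters' processing notes name BWA 0.6.1, bedtools and Cufflinks with rn4. For annotation release and strand setting, nothing is given in the sources used here. Ages came from the labels and columns were matched by sample title. Replicate numbers follow accession order and only name libraries. No columns were identical (0 pairs).

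Gene IDs with at least 1 FPKM in at least 5 libraries (14128 of 29516) were put on the log2(FPKM + 0.5) scale and tested with limma 3.58.1 (R 4.3.3). All 25 libraries entered 1 fit with a mean per age, 20 residual degrees of freedom and a trend in the variance. The 10 pairwise contrasts were two-sided and adjusted by Benjamini-Hochberg over all gene IDs, with a threshold of 0.05. On this scale, changes of low genes are understated. Log2 ratios, with 0.5 FPKM added to both genes, were tested by exact permutation (scipy 1.17.1), adjusted over 15 comparisons. Whole reads were sought with relative depths from sparse gene IDs in 300 pairs of libraries. Code was tested on simulated data. Alternatives covered pseudocounts, filters, scalings, the samples fitted, a block and left-out libraries. The genes, lists and tests were chosen with earlier results of these data known. The naming rule took the 3 genes, the complement and microglia lists (no IDs paired) and the 2 gene IDs most like them.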

Additional observations from a re-analysis of the deposited data

Results flagged for a closer look

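Each gene's level and each ratio between genes was searched at every age for a single library standing far from the remaining 4. Among these 30 groups 2 had one, and chance flags about 1.5. Aif1 was at 7.43 FPKM in P14 replicate 5, against 11.9 to 13.5 in the other P14 libraries. The same library was also the lowest of P14 for C1qa and C1qb, at 4.58 and 3.91 FPKM. The ratio of C1qb to Aif1 was 0.366 in P14 replicate 3, against 0.481 to 0.526 in the other P14 libraries.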

How the results depend on the processing

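For 48 results, 1572 alternative values were computed, of which 1461 kept both direction and side of the threshold, 59 lost the call, 14 gained one and 38 changed sign, the last all in differences that did not pass. The fit with the replicate block (block: the leading number in the title, consensus correlation 0.33) changed no call of the 3 genes, and moved Aif1 from P8 to P21 to 0.00. No number recurs at more than 1 age, so it pairs no libraries across ages, but within each age 5 libraries share 3 numbers, and the exact permutation tests take no account of that. Calls for C1qa from P8 to P14 were gained after quantile normalization (0.57) and without the 3 libraries least like their age (0.75), and ran from 0.35 to 0.72 with 1 library left out. From P14 to P21, C1qa gained a call after quantile normalization (0.8) and median-of-ratios scaling (0.81), with 0.51 to 0.92 over left-out libraries, and C1qb gained one in the same settings (0.41 and 0.45). With equal FPKM totals, C1qb from P8 to P14 lost its call (1.01). Signs changed for Aif1 from P8 to P21 with quantile (0.11) and median-of-ratios scaling (0.13), without those 3 libraries (0.00) and over left-out libraries (-0.07 to 0.09). The same held for Aif1 from P8 to P35 (-0.05 to 0.13), P14 to P35 (0.03 after median-of-ratios scaling, -0.23 to 0.00 over left-out libraries), P21 to P35 (-0.05 to 0.13), P8 to P70 (0.00 after median-of-ratios scaling) and P21 to P70 (0.03 with equal totals). C1qa changed sign from P21 to P35 (-0.07 without the 3 libraries, -0.07 to 0.32 over left-out libraries) and from P21 to P70 (-0.19, and -0.19 to 0.21). C1qb did so from P21 to P35 (-0.2 to 0.02) and from P35 to P70 (-0.22 to 0.03) over left-out libraries. Among log2 ratios, C1qa to C1qb from P35 to P70 ran from -0.05 to 0.04, and from P8 to P70 passed with a pseudocount of 1 (0.36). C1qa to Aif1 from P14 to P21 ran from 0.7 to 1.04, passing without P21 replicate 5. It changed sign from P21 to P35 (-0.12 without the 3 libraries, -0.12 to 0.22) and ran from -0.03 to 0.19 from P35 to P70. C1qb to Aif1 from P14 to P21 passed with a pseudocount of 1 (0.45) and ran from 0.39 to 0.57, passing without P21 replicate 5, and from P35 to P70 it ran from -0.01 to 0.21. Without the 3 libraries, C1qa to Aif1 from P8 to P70 (1.41), C1qb to Aif1 from P8 to P14 (0.6) and from P8 to P70 (1.07) no longer passed. With fewer P14 libraries the smallest exact p of the comparison of P14 with P8 is larger, while P8 against P70 keeps all its libraries and loses the call through the adjustment over 15 comparisons. With 1 library left out they ran from 1.31 to 1.49, 0.61 to 0.74 and 0.97 to 1.17. The cause of the other changes was not tested.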
